A study of Homo sapiens with 4 samples.

Results

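The replication-dependent histone genes encode the linker histone H1 and the core histones H2A, H2B, H3, and H4 that package newly copied DNA. They were taken as the protein-coding genes whose symbol starts with H2AC, H2BC, H3C, or H4C and a number, or is H1-1 to H1-6. This gave 66 of the 58243 genes in each table, and 4 further genes of that description in GENCODE release 44 (H2AC18, H2AC19, H3C2, and H3C3) were not analysed here. The 66 genes were 6 of H1, 15 of H2A, 19 of H2B, 11 of H3, and 15 of H4. On GRCh38, 53 of them lay on chromosome 6 between positions 25723397 and 27893891, 11 on chromosome 1, 1 on chromosome 12 (H4C16), and 1 on chromosome 21 (H2BC12L).

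The values came from 293T cells, a human embryonic kidney line that carries the SV40 large T antigen. They received either a control RNA or a mimic of miR-1, miR-122, or miR-124, microRNAs best known from muscle, liver, and neurons, respectively. A mimic is a synthetic RNA that acts as the mature microRNA, and all 4 conditions were transfected, the control included. There was 1 library per condition, made from total RNA with an mRNA-seq kit 48 h after transfection as labelled, a longer time than the study's methods give. With 1 library per condition there is no replicate check, so no p-value is given, and every interval covers counting error only and compares libraries rather than conditions. The 3 comparisons share the control library.

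Each deposited value is in FPKM, reads scaled by gene length and library size. The whole reads behind the FPKM values were recovered, and the libraries' totals ranged from 5887055 reads (miR-122) to 9452232 (miR-1). Histone genes held 0.0318% of the reads in the control, 0.0315% under miR-1, 0.0391% under miR-122, and 0.0315% under miR-124. VIM, a mesenchymal marker that 293T cells express, lay between 58.0 and 68.3 FPKM, and NEFM between 0.864 and 1.06 FPKM. LIN28B, of embryonic cells, had 255 to 431 reads, at 0.295 to 0.438 FPKM. PAX2, of embryonic kidney, had 12 to 30 reads, at only 0.0192 to 0.0492 FPKM, beside at most 0.0129 FPKM for the heart gene MYH6. The defining genes of liver, leukocytes, and heart were near 0, with at most 2 reads for ALB, 1 for PTPRC, and 3 for MYH6. In such bulk RNA, fewer cells in S phase and less histone RNA per cell cannot be told apart.

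Replication-dependent histone mRNAs are made mainly in S phase, when new chromatin needs histone protein, and they are removed when DNA synthesis stops. Unlike other mRNAs, they normally end in a conserved stem-loop rather than a poly(A) tail. The stem-loop-binding protein SLBP holds this structure, and the U7 small nuclear ribonucleoprotein guides the cut behind it. Some members also have longer, polyadenylated transcripts from a signal further downstream. Kits for mRNA-seq usually select RNA by its poly(A) tail, but the sources used here do not describe the selection step.

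The stem-loop is the sequence these genes have in common, although the rule did not use it. The histone stem-loop motif, 16 bases that fold into a stem of 6 base pairs and a loop of 4 bases, was searched on the coding strand within 150 bases after the stop codon. It was found in 65 of 66 members, the exception being H2BC12L, and in 7 of 19880 other protein-coding genes (0.0352%). Those 7 were APLP1, DLEU7, H2AX, H3-4, H3-7, KMT2C, and UQCRB, of which 3 are histone genes themselves. The motif began 23 to 63 bases after the stop codon, with a median of 36. Shown next, 5′ to 3′, are the stem-loops of the member with most reads in each class, and those of H4C3 and of the less usual H3C6 and H2AC15. The stem-loop is in capitals with 5 flanking bases on each side, and positions are those of the capitals on GRCh38.
H1-2 (chr6:26055744-26055759, minus strand): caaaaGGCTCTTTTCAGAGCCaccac
H2AC6 (chr6:26124669-26124684, plus strand): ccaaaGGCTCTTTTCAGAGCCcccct
H2BC12 (chr6:27146366-27146381, minus strand): ccaaaGGCTCTTTTAAGAGCCactta
H3C10 (chr6:27810516-27810531, plus strand): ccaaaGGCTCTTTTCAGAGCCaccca
H4C9 (chr6:27139654-27139669, plus strand): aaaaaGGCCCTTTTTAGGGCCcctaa
H4C3 (chr6:26104317-26104332, plus strand): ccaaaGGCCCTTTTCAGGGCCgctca
H3C6 (chr6:26225596-26225611, plus strand): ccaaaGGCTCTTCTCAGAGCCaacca
H2AC15 (chr6:27837885-27837900, minus strand): aaaaaGGTTCTTTTCAGAGCCaccta

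The members shared 10 distinct stem-loops. The form seen in H1-2, H2AC6, and H3C10 was the commonest and stood in 36 members of H1, H2A, H2B, and H3, none of them H4. That of H4C3 was found in 10 members and that of H4C9 in 4, all of them H4. The form of H2BC12 was found in 9 members, among them H2BC4, H2BC5, and H2BC11. Each of the other 6 stem-loops belonged to 1 gene. H3C6 and H2AC15 were among them.

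Reads were very unequally spread over the genes. Of the 66, 13 were listed at 0 in all 4 libraries, 30 had 1 to 39 recovered reads over the 4 libraries, and 23 had at least 40. H1-2 had 2168 reads, H2BC12 had 2027, and H4C9 had 1777, together 63.4% of the 9420 histone reads. The next gene, H2AC6, had 333. A count of 0 allows up to 3 reads, which for a gene of 1 kb is 0.317 FPKM in the miR-1 library and 0.51 FPKM in the miR-122 library. This limit covers counting error only. RNAs that every cell uses, such as RN7SK and RMRP, were also listed at 0 in all 4 libraries, so a 0 here does not limit the level of a gene in the cells. Only the 23 genes with at least 40 reads were compared one by one, and all 23 were above 0.004 FPKM, the study's limit of detection, in every library.

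**Figure D1:**
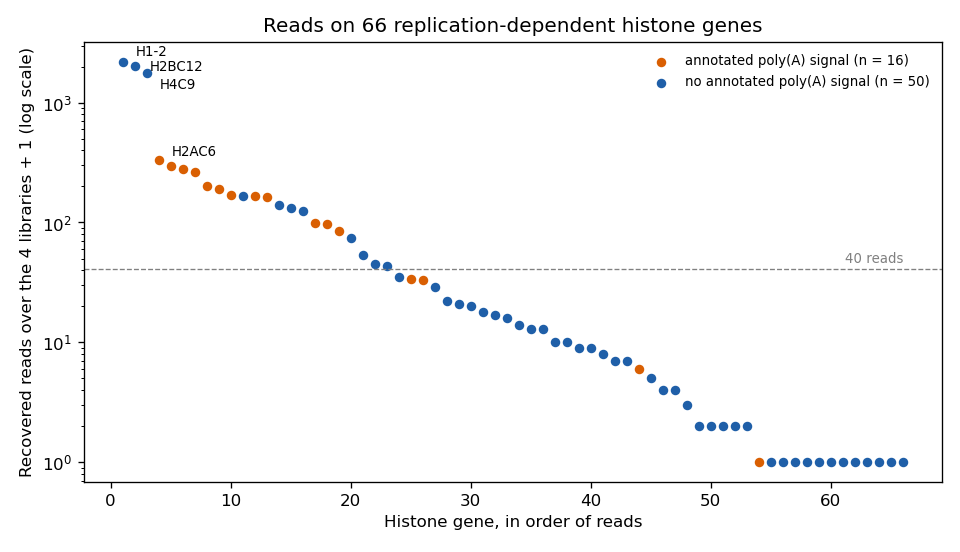
Recovered reads over the 4 libraries plus 1 (y axis, log scale) for each of the 66 histone genes in order of reads (x axis), coloured by whether an annotated end has a poly(A) signal. H1-2, H2BC12, and H4C9 stand apart at 1777 reads or more, and 12 of the 16 genes with a signal lie above the dashed line at 40 reads.

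Most members had no annotated poly(A) signal. AATAAA or ATTAAA was found within 40 bases before an annotated transcript end in 16 of 66 members, against 83.6% of other protein-coding genes. Of the 16, 12 reached 40 reads, with a median of 163.5 reads over the 16 and 1 gene at 0. Of the 50 without a signal, 11 reached 40 reads, with a median of 8 reads and 12 genes at 0. Members with a signal thus usually had more reads, yet the 3 genes with most reads had none in the annotation. Reads per gene are not levels per length, and members with a signal often have longer annotated transcripts.

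The named marker genes H1-2, H2BC12, and H4C3 were all detected, at very different levels. H1-2 (ENSG00000187837, 1 exon, chr6:26055740-26056470), a linker histone, had 112 FPKM in the control, 115 under miR-1, 136 under miR-122, and 116 under miR-124. H2BC12 (ENSG00000197903, 1 exon, chr6:27146361-27146855) had 181, 176, 221, and 181 FPKM in the same order, the highest FPKM of any member. H4C3 (ENSG00000197061, 1 exon, chr6:26103933-26104337) had 4.17, 2.93, 2.74, and 3.92 FPKM, from 7 to 12 reads a library. H4C3 was therefore a minor member here, and the leading H4 gene was H4C9 (ENSG00000276180, 1 exon, chr6:27139282-27139678), at 42.8, 48.5, 58.9, and 44.1 FPKM. For H1-2, H2BC12, and H4C9 the miR-122 library was the highest of the 4, while the other 3 libraries lay close together.

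**Figure D2:**
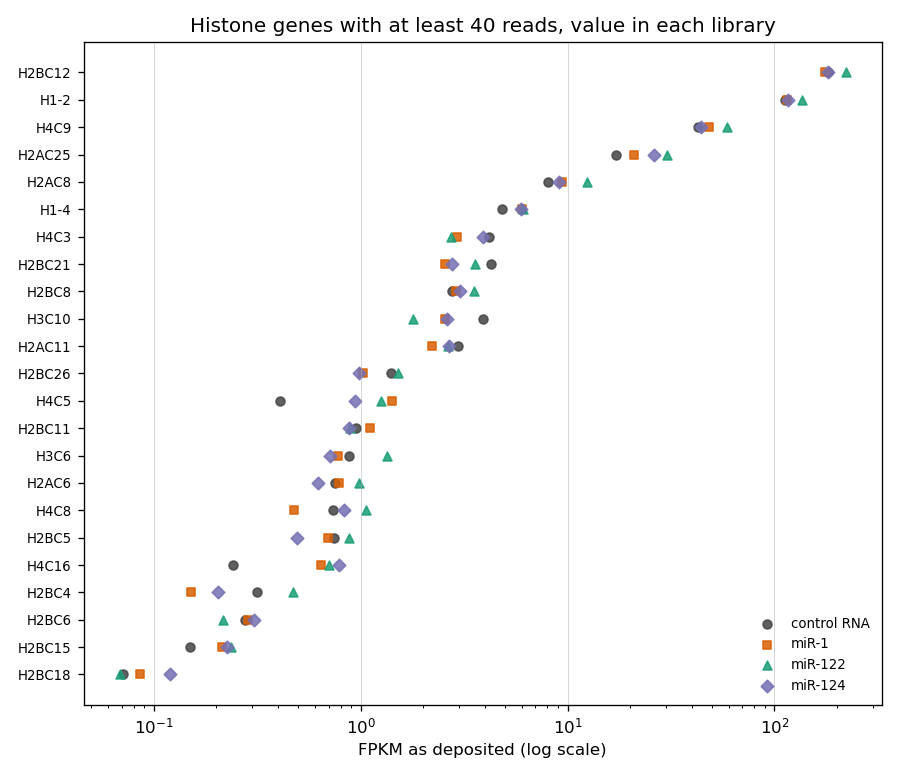
Deposited FPKM (x axis, log scale) of the 23 histone genes with at least 40 reads (y axis) in each of the 4 libraries, 1 point per library. Levels run from about 0.07 for H2BC18 to 221 for H2BC12, and the 4 libraries differ far less than the genes do. The lengths by which reads were divided differ widely between genes and enter these levels.

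Levels of different genes depend on the length by which reads were divided. H2BC12 was divided by 380 bases, about its coding sequence, while H4C9 was divided by 1293 bases, more than its single annotated exon. The spliced gene H2AC6 was divided by 14971 bases, its whole span with introns. Divided by annotated exon length instead, the control levels were 140 reads per exonic kilobase, scaled by library size, for H4C9, 139 for H2BC12, and 98.5 for H1-2. By summed FPKM in the control, the classes ranked H2B (196), H1 (118), H4 (54.8), H2A (39.6), and H3 (8.43). By reads per exonic kilobase on the same scale, H2B (182) came first and H4 (155) passed H1 (104), followed by H2A (41.1) and H3 (8.80). H3 was the lowest class on both scales. Ratios of 1 gene between libraries do not depend on the length.

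Among H1 genes, H1-4 (chr6:26156329-26157115) followed H1-2 at 4.81 FPKM in the control, 6.04 under miR-1, 6.09 under miR-122, and 5.96 under miR-124, from 24 to 43 reads a library. H1-3 and H1-5 had 6 reads each, at most 0.666 FPKM in any library. Most H1 reads were thus on H1-2, 2168 of 2306 over the 4 libraries. In H2A, H2AC25 (chr1:228434777-228457873) had 17.2 FPKM in the control, 21.1 under miR-1, 30.4 under miR-122, and 26.3 under miR-124. H2AC25 is a member of the small cluster on the long arm of chromosome 1, and its control library was the lowest of the 4. H2AC8 had 8.02, 9.37, 12.4, and 9.13 FPKM in the same order. H2AC11 had 2.95, 2.21, 2.64, and 2.68 FPKM. H2AC6, spliced over chr6:26124145-26139116, had 0.756, 0.784, 0.987, and 0.620 FPKM. H2AC8 and H2AC6 were thus highest with miR-122, and H2AC11 was highest in the control. The order of these 4 genes depends on the lengths used, 447 bases for H2AC25 but 14971 for H2AC6. Per exonic kilobase the control levels were 13.5 for H2AC11, 7.88 for H2AC8, 6.79 for H2AC6, and 4.16 for H2AC25.

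The H2B genes after H2BC12 were mostly longer, spliced, and lower per kilobase. For some, such as H2BC5 and H2BC18, the length used was about the gene span, introns included, which lowers the FPKM. Per exonic kilobase their control levels were 11.4 for H2BC5 and 1.18 for H2BC18, still below the 139 of H2BC12. H2BC4 (chr6:26086317-26123926) had 0.317 FPKM in the control, 0.152 under miR-1, 0.469 under miR-122, and 0.205 under miR-124, from 48 to 100 reads a library. These H2BC4 reads were recovered at a whole multiple of the smallest fitting length, so they can be too high and its intervals too narrow. H2BC5 (chr6:26158122-26171349) had 0.743, 0.697, 0.875, and 0.492 FPKM in that order. Both were highest with miR-122. H2BC21 (chr1:149884459-149886682) had 4.27, 2.56, 3.56, and 2.75 FPKM and was highest in the control. H2BC4 shares exonic bases with HFE, an iron-homeostasis gene that had only 0 to 5 reads in each library. It also shares them with ENSG00000291336, which overlaps H2AC6 too and for which no reads were taken here. The other H2B genes with at least 40 reads were H2BC6, H2BC8, H2BC11, H2BC15, H2BC18, and H2BC26. Of these, H2BC15 had 0.151, 0.215, 0.236, and 0.226 FPKM, lowest in the control. H2BC18 had 0.0712, 0.0855, 0.0687, and 0.120 FPKM, highest with miR-124, from 12 to 24 reads a library.

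H3 and the remaining H4 genes rested on few reads. H3C10 (chr6:27810051-27811300) had 3.91 FPKM in the control, 2.57 under miR-1, 1.79 under miR-122, and 2.63 under miR-124, from 13 to 32 reads. H3C6 had 0.876, 0.776, 1.35, and 0.709 FPKM in that order. H3C13 and H3C1 followed with 19 and 12 reads over the 4 libraries. The leading H3 genes therefore had their extremes in the miR-122 library, but in opposite directions. H4C8 had 0.733, 0.474, 1.06, and 0.828 FPKM. H4C16, the single member on chromosome 12, had 0.241, 0.642, 0.705, and 0.790 FPKM, from 5 reads in the control to 19 with miR-1. H4C5 had 0.406, 1.42, 1.26, and 0.937 FPKM, from 4 reads in the control to 20 with miR-1. Both H4C16 and H4C5 were lowest in the control, where 4 or 5 reads carry each of their ratios.

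The clearest difference was in the miR-122 library. The 66 genes together had 318 RPM (reads divided by the library total, times 1000000) in the control, 315 under miR-1, 391 under miR-122, and 315 under miR-124. The ratio to control was 1.23 with miR-122 (95% interval 1.16 to 1.31), 0.993 with miR-1 (0.939 to 1.05), and 0.991 with miR-124 (0.932 to 1.05). Since the control enters all 3 ratios, the miR-122 library was also set against the mean of the other 2 mimic libraries, which gave 1.24. The control library was thus not needed for the miR-122 value to stand above the rest. The same alternative gave 0.894 for miR-1 and 0.892 for miR-124, because the miR-122 library is then part of their reference.

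With miR-122, the difference was seen in H1, H2A, H2B, and H4. H4 reads were 1.35 times the control (1.19 to 1.53), H2A reads 1.33 times (1.11 to 1.59), H1 reads 1.21 times (1.07 to 1.37), and H2B reads 1.19 times (1.08 to 1.31). H3 reads were 0.791 times the control (0.528 to 1.18), an interval that reaches both sides of 1 and rests on 64 reads in the control and 45 with miR-122. The interval of H3 lay below that of H4 and overlapped those of H1, H2A, and H2B, and the differences between classes were not tested. With miR-1, H2B reads were 0.911 times the control (0.832 to 0.997) and those of H4 1.10 times (0.979 to 1.24). The H2B sums include H2BC4, whose reads can be too high by a whole factor. With miR-124, the intervals of all 5 classes held 1.

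**Figure D3:**
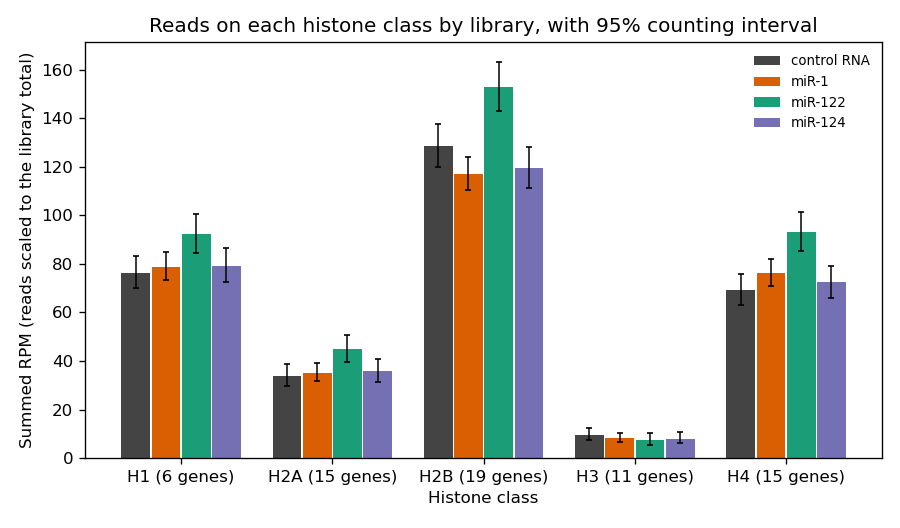
Summed RPM (y axis, reads scaled to the library total) of each histone class (x axis) in the 4 libraries, with 95% Poisson counting intervals as error bars. The green miR-122 bar is the tallest in H1, H2A, H2B, and H4, and the 4 bars of H3 lie within each other's intervals.

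Gene by gene, 6 of the 23 genes were at least 1.5-fold higher with miR-122 than in the control, against 4.72% of the 16873 genes tested, and 2 were at least 1.5-fold lower, against 6.1%. The 6 were H2AC8, H2AC25, H2BC15, H3C6, H4C5, and H4C16, and the 2 were H3C10 and H4C3. The background was deeper, with at least 400 reads for 10524 of the 16873 genes but for 3 of the 23. Ratios from few reads pass 1.5-fold more often by counting error, and no share at matched depth was taken. The 1.5-fold counts with miR-1 and miR-124 have the same limit. The median log2 ratio was 0.34 over the 23 genes and -0.02 over all genes tested, and 16 of the 23 ratios were above 1, against 46.8% of all genes. Most of the 6 had few reads: the whole interval lay above 1 only for H2AC25 among them, at a ratio of 1.77 (1.23 to 2.56). By that second rule, 5 genes were above 1, against 11.1% of all genes, namely H2AC25, H1-2, H2BC12, H4C9, and H2BC4. The interval of H2BC4 can be too narrow, as its reads can be too high by a whole factor.

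The genes with most reads differed by less than 1.5-fold but with narrow intervals. With miR-122, H1-2 was 1.21 times the control (1.06 to 1.37), H2BC12 1.22 times (1.07 to 1.39), and H4C9 1.37 times (1.19 to 1.58). All 3 histone genes with at least 400 reads thus had their interval above 1, as had 14.7% of the 10524 genes of that depth (18% had it below 1). Against the mean of the other 2 mimic libraries, H1-2 stood at 1.17, H2BC12 at 1.24, and H4C9 at 1.27. Without these 3, the sum over the other 63 genes was 1.18 times the control (1.07 to 1.30). H2BC4 stood at 1.48 (1.09 to 2.02), an interval that can be too narrow because its reads can be too high. H3C10 went the other way, at 0.457 times the control (0.220 to 0.895), the only gene of the 23 whose interval lay below 1, against 13.7% of all genes. H4C3 (0.656, interval 0.219 to 1.81) and H2BC6 (0.783, interval 0.387 to 1.55) had the next lowest ratios, and their intervals held 1.

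**Figure D4:**
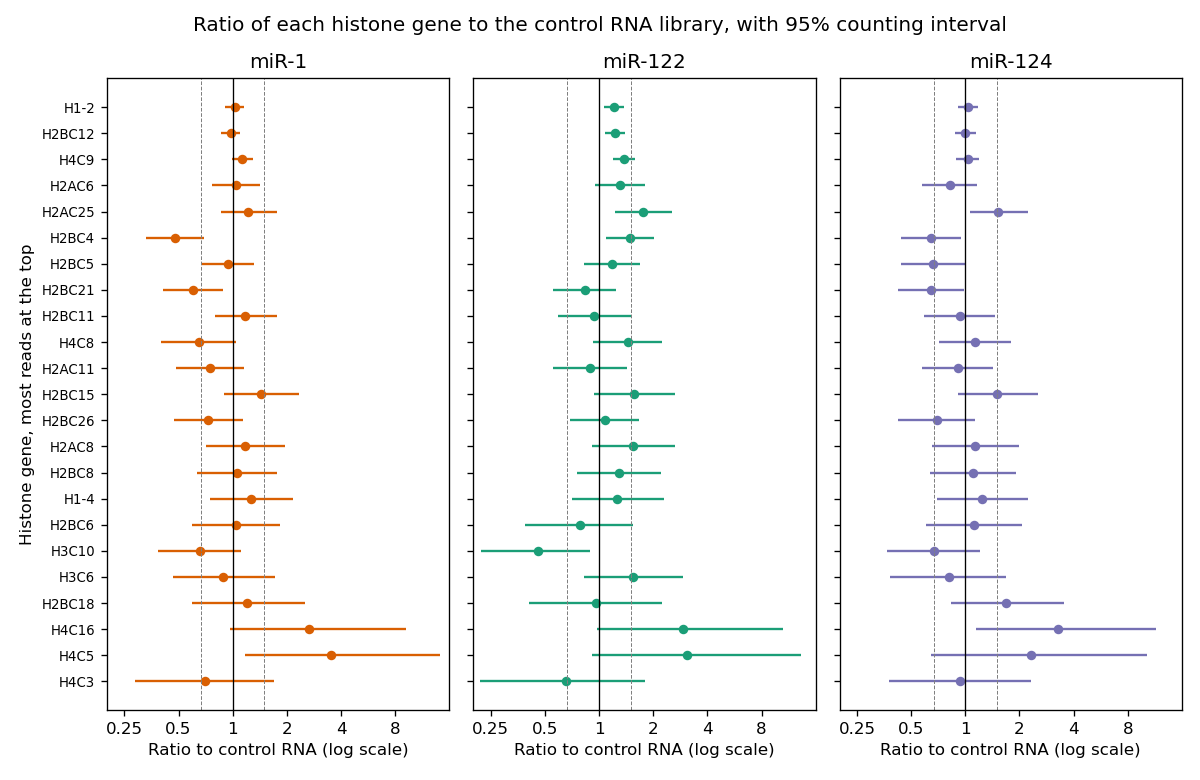
Ratio to the control library (x axis, log scale) of the 23 histone genes with at least 40 reads (y axis, most reads at the top) for each mimic, with 95% counting intervals as lines. The dashed lines mark 1.5-fold in either direction, and with miR-122 the 3 genes at the top lie to the right of 1 with their whole interval.

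The miR-1 library showed no such common difference. Of the 23 genes, 2 were at least 1.5-fold higher, against 3.72% of all genes, and 4 were at least 1.5-fold lower, against 8.87%. The median log2 ratio was 0.05, beside -0.06 over all genes, and 13 of the 23 ratios were above 1, against 42.7%. H2BC4 was the lowest, at 0.480 times the control (0.330 to 0.691), followed by H2BC21 at 0.599 (0.407 to 0.879). They were the 2 genes whose whole interval lay below 1, against 21% of all genes, and that of H2BC4 can be too narrow. H4C8 (0.647, interval 0.400 to 1.04) and H3C10 (0.657, interval 0.386 to 1.12) were the other 2 lower genes. The highest ratios were those of H4C5 at 3.50 (1.17 to 14.1), H4C16 at 2.66 (0.962 to 9.13), and H2BC15 at 1.43 (0.893 to 2.33). Only the interval of H4C5 lay above 1, against 12.8% of all genes. H1-2 (1.02), H2BC12 (0.975), and H4C9 (1.13) had intervals that held 1, whereas 17.8% of the 10524 genes with at least 400 reads lay wholly above 1 and 26.2% wholly below.

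With miR-124, 5 of the 23 genes were at least 1.5-fold higher, against 5.13% of all genes, and 3 were at least 1.5-fold lower, against 6.5%. The median log2 ratio was 0.04, beside -0.05 over all genes, and 13 of the 23 were above 1, against 44.6%. The 5 higher genes were H4C16 at 3.28 (1.15 to 11.4), H4C5 at 2.31 (0.643 to 10.2), H2BC18 at 1.68 (0.830 to 3.54), H2AC25 at 1.53 (1.06 to 2.22), and H2BC15 at 1.5 (0.906 to 2.52). The whole interval lay above 1 for H4C16 and H2AC25, against 13.5% of all genes. All 3 lower genes were of H2B, with H2BC21 at 0.644 (0.420 to 0.977), H2BC4 at 0.647 (0.441 to 0.941), and H2BC5 at 0.662 (0.438 to 0.991). Their intervals lay below 1, as did those of 18% of all genes, and that of H2BC4 can be too narrow. H1-2 (1.04), H2BC12 (1.00), and H4C9 (1.03) again had intervals that held 1, whereas 18.4% of the genes of that depth lay wholly above 1 and 24% wholly below.

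H2BC4 had the widest contrast between mimics among the genes with at least 100 reads, although its reads can be too high by a whole factor. Against the mean of the other 2 mimic libraries it stood at 2.63 with miR-122, at 0.451 with miR-1, and at 0.660 with miR-124. H2BC21 was below the control with every mimic, at 0.599, 0.835, and 0.644, and H2AC25 was above it with every mimic, at 1.22, 1.77, and 1.53, and these values share the control library. With the other mimics as reference, H2BC21 stood at 0.810 under miR-1, 1.34 under miR-122, and 0.899 under miR-124. H2AC25 stood at 0.743, 1.28, and 1.02 in the same order.

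Members with and without an annotated poly(A) signal were set apart. With miR-122 their summed reads were 1.21 times the control with a signal (1.08 to 1.36) and 1.24 times without (1.15 to 1.33). The latter value rested on H1-2, H2BC12, and H4C9, which held 1299 of the group's 1529 reads in the control. Without them the group stood at 1.11 with miR-122 (0.920 to 1.34), an interval that holds 1. With miR-1 they were 0.876 times with a signal (0.784 to 0.980) and 1.04 times without (0.971 to 1.11). With miR-124 they were 0.868 times with a signal (0.768 to 0.981) and 1.04 times without (0.966 to 1.11). The group with a signal thus had its summed interval below 1 with miR-1 and miR-124, and the group without a signal did not. H2BC4 held 76 of the signal group's 575 reads in the control, 52 of 719 under miR-1, and 48 of 487 under miR-124. These H2BC4 reads can be too high by a whole factor, and the sum without H2BC4 was not taken. The low values therefore cannot be read as common to the group. Of its 12 tested genes, 5 were above 1 with miR-1 and 4 with miR-124. The difference between the groups was not tested. The 43 genes under 40 reads summed to 90 reads in the control, and their ratios of 0.895 under miR-1, 0.863 under miR-122, and 0.831 under miR-124 had intervals that held 1.

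Targets of a microRNA usually carry the complement of its seed in the 3′ UTR, and most histone genes have little room for it. The median of the longest annotated 3′ UTR was 60 bases over the 66 members and 1864 bases over all protein-coding genes tested. It was not taken for the 23 genes compared, of which 12 have an annotated poly(A) signal. Of the 23 genes, the miR-1 word ACATTCC was found in the 3′ UTR of H2BC4, H2BC26, and H3C10, the miR-124 word GTGCCTT in H2BC26 and H3C6, and the miR-122 word ACACTCC in none. Over all protein-coding genes tested, the share with the word was 18.6% for miR-1, 22.4% for miR-124, and 13.0% for miR-122. With miR-1, the genes with its word stood at 0.480 (H2BC4), 0.657 (H3C10), and 0.733 (H2BC26, interval 0.474 to 1.13). With miR-124, those with its word stood at 0.699 (H2BC26, interval 0.424 to 1.14) and 0.809 (H3C6, interval 0.383 to 1.68). Of these 5 ratios, that of H2BC4 alone had its whole interval below 1, and this interval can be too narrow. Over all genes tested, 42.7% of ratios were above 1 with miR-1 and 44.6% with miR-124. Low ratios were also seen without the word, as for H3C10 with miR-122 (0.457) and H2BC4 with miR-124 (0.647). Whether the word has a part in any of these ratios was not tested. A word is a description and does not show that the site is used.

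Promoters were compared as the 250 bases before and 50 after each RefSeq start on GRCh38.p14, and 60 of 66 members were matched. Words were searched on both strands. The octamer ATTTGCAT, bound by OCT1 in H2B promoters, was found in 14 of 18 H2B and 11 of 14 H2A promoters, 1 of 9 H3 promoters, and none of H1 or H4, against 1.8% of 27305 promoters. CCAAT was found in every H1, H2A, H2B, and H3 promoter matched but in 3 of 13 H4 promoters, against 35.7% of all. GGTCC was found in 12 of 13 H4 promoters, against 46.1% of all, and TATAAA in 39 of 60, against 12%. The genes with an octamer summed to 0.927 times the control under miR-1 (0.848 to 1.01), 1.19 times under miR-122 (1.08 to 1.31), and 0.943 times under miR-124 (0.856 to 1.04).

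Few of the genes that make, process, and destroy histone mRNA were past 1.5-fold from the control. SLBP had 803 reads in the control, 1177 under miR-1, 698 under miR-122, and 713 under miR-124, for ratios of 1.03, 0.978, and 0.910, all with intervals that held 1. NPAT, the coactivator of histone genes, stood at 0.876, 0.917, and 0.793, and its intervals also held 1. CASP8AP2, a partner of NPAT, stood at 0.822 (0.693 to 0.976) under miR-1, 0.846 (0.698 to 1.02) under miR-122, and 0.779 (0.642 to 0.942) under miR-124. Of 28 tested genes of histone transcription and 3′ end processing, 1 was at least 1.5-fold higher with miR-1 (CCNE1, which encodes cyclin E1, at 1.58, interval 1.25 to 2.0) and none lower. None of the 28 was 1.5-fold higher or lower with miR-122 or miR-124. With miR-122 the whole interval lay above 1 for 7 of them and below 1 for 5. Over all genes tested the shares were 11.1% above and 13.7% below, and 14.7% and 18% over genes with at least 400 reads. Their median log2 ratio was 0.04 under miR-1, -0.01 under miR-122, and -0.04 under miR-124.

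Genes of histone mRNA translation and decay had 11 members tested. None was 1.5-fold higher, and 1 was lower with miR-122 (TENT4B, 0.646, interval 0.470 to 0.882) and 1 with miR-124 (TUT7, 0.653, interval 0.461 to 0.918). Both encode terminal nucleotidyltransferases, which add nucleotides to RNA 3′ ends. The 20 histone chaperone and import genes tested and the 35 S phase genes tested had no gene 1.5-fold from the control with any mimic. The S phase genes had median log2 ratios of -0.03 under miR-1, 0.03 under miR-122, and -0.08 under miR-124. The 12 mitochondrially encoded mRNAs tested had medians of -0.05, 0.08, and -0.05, with no gene 1.5-fold from the control. With miR-122, the histone median of 0.34 thus stood beside medians of -0.02 for all genes and 0.03 for S phase genes.

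Replication-independent histone genes, which have introns or poly(A) tails and are used outside S phase, gave 11 tested genes. None was 1.5-fold higher with any mimic, and the 1 lower gene was H3-3B, an H3.3 gene, at 0.640 with miR-1 (0.615 to 0.666). The median log2 ratio of the 11 was -0.04, 0.01, and 0.02 for the mimics in that order. H2AX, which has both a stem-loop and a polyadenylated mRNA, had 2008 reads in the control and stood at 0.963 under miR-1 (0.908 to 1.02), 1.22 under miR-122 (1.15 to 1.30), and 1.14 under miR-124 (1.07 to 1.21). With miR-122, H2AX had nearly the ratio of H1-2 and H2BC12, while with miR-124 it alone of these had its interval above 1.

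RNAs that lack a poly(A) tail were set beside the histone genes. Of 21 such RNAs in the tables, RN7SL2, the RNA of the signal recognition particle, alone had at least 40 reads. None was counted for 16, among them RN7SK, RMRP, and RNU7-1, the RNA of U7. RN7SL1, another gene for the RNA of the signal recognition particle, was also at 0, while RN7SL2 had 19804 reads. How reads shared by such copies were counted is not given, so a 0 does not measure RNA without a tail. RN7SL2 was 1.55 times the control under miR-1 (1.49 to 1.62), 1.38 times under miR-122 (1.32 to 1.45), and 1.62 times under miR-124 (1.55 to 1.70). It was thus higher than the control with every mimic, whereas the summed histone reads had their interval above 1 with miR-122 and on both sides of 1 with the other 2 mimics. Whether the share of RNA without a tail differed between libraries, and its part in the histone values, was not tested.

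Other protein-coding genes with 1 annotated exon lack introns, as most of the 66 histone genes do. They were not matched to the histone genes in length, and only 9 of the 23 histone genes compared were compact single-exon genes. Of 884, 206 were tested. Under miR-1, 7 were 1.5-fold higher and 15 lower, against 3.72% and 8.87% of all genes tested. Under miR-122, 15 were higher and 8 lower, against 4.72% and 6.1%. Under miR-124, 18 were higher and 9 lower, against 5.13% and 6.5%. The median log2 ratios of the 206 were -0.08, 0.03, and 0.09 in that order. With miR-122 their median was thus well under the histone median of 0.34. The genes of this group past 1.5-fold in the same direction with at least 2 mimics, in order of reads, began with INAFM1 (1.31, 1.53, and 1.59), FOXD2 (0.579, 0.653, and 0.879), LENG9 (1.33, 2.03, and 1.93), and TMEM158 (1.32, 1.83, and 1.95).

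The members were richer in GC than most genes. The median GC content was 55.7% over the 66 members, 48.9% over the 23 compared, and 48.5% over all genes tested. With the trend of the ratios on GC content and length subtracted, the median log2 ratio of the 23 was 0.06 under miR-1, 0.25 under miR-122, and -0.07 under miR-124. The 9 compact single-exon genes among the 23, which have no intron and span under 1000 bases, had a median log2 ratio of 0.07 under miR-1, 0.34 under miR-122, and 0.05 under miR-124. Leaving out the 6 genes whose exons overlap another gene left the miR-122 median at 0.34.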

How the data were processed

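The authors sequenced single-end mRNA-seq libraries of 293T cells, and the submitters' processing notes name CASAVA 1.8, HISAT2 2.0.0, and GRCh38. They deposited FPKM values for 58243 genes in each of 4 libraries, and the counting program and its annotation are not given in the sources used here. How reads shared by near-identical histone copies were counted is likewise not given, so single members are uncertain. From these FPKM values, the divisor of each library and whole reads per gene (tolerance 0.0001) were recovered for 99.99% of the 32358 genes above 0. For 54.4% this was at the annotated GENCODE 44 distance. Otherwise the smallest fitting length was taken, and reads can then be too low by a whole factor, which makes an interval too wide. Where a multiple of that length, up to 6, lay within 10% of the annotated distance, the multiple was taken instead. This was so for H2BC4 and H2BC26, whose reads can be too high by a whole factor and their intervals too narrow. Recovered reads came to 101.6% to 101.7% of the divisors.

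Each mimic library was divided by the control without a pseudocount, for genes above 0.004 FPKM in both and with at least 40 reads over the 4 libraries. Intervals are exact (Clopper-Pearson, 95%) from the 2 read counts. Called genes were at least 1.5-fold from control. On simulated Poisson counts for miR-1 against control (16924 genes tested), 98.9% of genes regained their reads. In the simulation, annotated lengths were nearer the lengths used than they are for some members, such as H4C9 and H2AC25. From the simulated reads themselves, without recovery, 95.6% of intervals held the true ratio and 4.59% of unchanged genes were called. Such counts vary by counting error alone, so a share near 95% was built in. Of genes raised 2-fold, 96.9% were called.

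Members, lists, and alternatives were chosen with earlier results of these data known. The text names H1-2, H4C3, H2BC12, the 4 members with most reads in each class, the 3 highest and 3 lowest ratios for each mimic, SLBP, NPAT, CASP8AP2, and at most 4 genes per other list past 1.5-fold in 2 mimics. H2AX, H3-3B, CCNE1, TENT4B, TUT7, and members called or holding a seed word were named after their values were seen. Sequences are from GRCh38 and GENCODE 44, and promoters from RefSeq. Python 3.11.15, numpy 2.4.6, pandas 2.3.3, scipy 1.17.1, and matplotlib 3.10.9 were used.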

Additional observations from a re-analysis of the deposited data

How the results depend on the processing

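No paired analysis was possible because the 4 conditions had 1 library apiece, and no replicate could be left out. The median log2 ratio with miR-122 stayed between 0.18 and 0.36 over all alternatives run, that with miR-1 lay between -0.18 and 0.11, and that with miR-124 between -0.11 and 0.09. The summed ratio with miR-122 lay between 1.18 and 1.25. Against the mean of the other 2 mimics it was 0.894 for miR-1 and 0.892 for miR-124, and without the 3 members with most reads, an alternative chosen after seeing the data, 0.921 for miR-1. Counts of members past 1.5-fold moved with the filters, the pseudocount, and the reference. Counts are given as higher then lower, in the order miR-1, miR-122, miR-124. With no read minimum they were 7 and 11, 11 and 8, and 10 and 11, and with at least 400 reads all 6 were 0, where 3 genes remain. With a pseudocount of 1 they were 1 and 0, 2 and 1, and 0 and 0, and with 0.1 those of miR-124 were 3 and 1. At 2-fold, 1 was lower with miR-1, 2 higher and 1 lower with miR-122, and 2 higher and 0 lower with miR-124. Against the other 2 mimics, 0 were higher and 2 lower with miR-1, 0 lower with miR-122, and 1 higher with miR-124. Centred on the median of all genes, 2 were lower with miR-1 and 1 with miR-124. With the GC and length trend subtracted, 0 were lower with miR-124, and without members with overlapping exons, 2 were lower with miR-1. Compact single-exon members gave 1 and 0, 2 and 1, and 1 and 0. By reads per exonic kilobase, H4 moved from rank 3 to rank 2 of the classes by level, past H1. Of the alternatives' values, 69 kept within their limits and 43 did not, most of them counts, and the cause was not tested. For the medians the limit was a log2 distance of 0.692 (miR-1), 0.678 (miR-122), or 0.711 (miR-124) from the main value. These limits are wider than the largest main median, 0.34. A median could thus change sign within its limit, as that of miR-1 did (0.05 to -0.18). The medians among the 69 therefore do not show that the medians were stable.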
